A study of Mus musculus with 8 samples.

Results

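Hdac6 and the 6 deacetylase genes usually listed with it, Hdac4, Hdac5, Hdac7, Hdac9, Hdac10 and Hdac11, were followed in mouse embryonic stem cells (ESCs) depleted of Hdac6, of the acetyltransferase Tip60, or of both. Every non-control probe whose gene name in the scanner files was 1 of these 7 symbols was taken, which gave 7 of the 30175 gene names and 9 of the 39429 probes on the array: 2 each for Hdac6 and Hdac10 and 1 for every other gene. The cells were E14 ESCs, a line grown without feeder cells on gelatin in medium with serum and LIF, and all 4 groups carried a lentiviral short hairpin RNA and were harvested 72 hours after infection. The groups were control KD (a hairpin against EGFP), Tip60 KD (against Kat5, which encodes Tip60), Hdac6 KD and double KD (both hairpins), where KD stands for knockdown, and each held 2 biological replicates, A and B. Each gene was targeted by 1 hairpin, picked from several that had been screened for their effect, so the depletion of a gene and other effects of its hairpin cannot be told apart. The question was whether the relatives of Hdac6 move when Hdac6 is depleted.

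Lysine deacetylases remove acetyl groups from histones and from other proteins. The class IIa enzymes, Hdac4, Hdac5, Hdac7 and Hdac9, have little activity of their own on acetyl-lysine and act largely as scaffolds: they bind Mef2 transcription factors in the nucleus, recruit the Ncor1 corepressor with Hdac3, and leave the nucleus on 14-3-3 proteins after kinases such as CaMK and protein kinase D have phosphorylated them. The class IIb enzymes are Hdac6 and Hdac10, which deacetylates polyamines. Hdac6 has tandem catalytic domains and a ubiquitin-binding zinc finger, and it deacetylates alpha-tubulin, Hsp90 and cortactin. It lies mostly in the cytoplasm of differentiated cells, whereas the paper reports it as largely nuclear in ESCs. Hdac11 is commonly put in a class of its own, class IV, and is kept here because it was listed with the others.

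The probes are 60 bases long, and the first 30 bases of 4 of them are given, from the scanner files, for the genes on which the results turn. The 2 Hdac6 probes are shown to make plain that they read nearly the same stretch of the same transcript: they lie 12 bases apart and share 48 of their 60 bases, and capitals mark the 18 shared bases that fall within both stretches. Hdac4 and Hdac7 are shown because their probes were the called ones among the relatives.
Hdac6 probe 1: acattgaaggagACAACGGGGCAGTGGCAG
Hdac6 probe 2: ACAACGGGGCAGTGGCAGcaggtcagcata
Hdac4: acttgggcagagttgctgaatcaagttgac
Hdac7: ccaagaaagagtatttgtgtgtatgtgtgt
On mouse build mm9 the Hdac6 stretches lie at chrX:7507291-7507320 and chrX:7507279-7507308, the Hdac4 stretch at chr1:93829584-93829613 and the Hdac7 stretch at chr15:97623238-97623267, all on the minus strand. The longest run of bases that a relative's probe shared with an Hdac6 probe was 8 bases, for Hdac4, and the other relatives shared runs of 5 to 7 bases. The exon or untranslated region under each probe was not assigned here.

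A level in what follows is the log2 of a probe's background-subtracted signal over the 75th percentile of its array, so that 0 is the percentile itself, and values under a common floor of -2.71 were raised to that floor. Levels of different probes cannot be set against each other. Where groups are said to overlap or to stand apart, the share of all probes that do so was not counted. With 2 arrays per group such an order says little by itself. All adjusted p-values are from limma over 22594 probes, each of which exceeded both its background and the floor on 2 arrays or more, and a probe was called at an adjusted p under 0.1. Of the 9 probes 8 were tested, and the Hdac11 probe was not. Replicate A and replicate B arrays lay on separate slides, each of which held 1 array of every group. Since the letters paired the arrays, values with the replicate letter as a block are given where they changed the call of a member probe. For other genes they are given in part. Of 10 ESC markers 8 lay above the floor on all 8 arrays, among them Pou5f1, Sox2, Klf4 and Esrrb. Nanog and Tdgf1 were counted above it on 7 arrays each, and their lowest values, 2.73 and 2.63, were far from the floor. In a bulk sample such as these, fewer cells of a type and less RNA per cell cannot be told apart.

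Hdac6 itself was depleted by its hairpin on every array that received it. For Hdac6 probe 1 the control KD arrays read 2.21 and 2.18, those of Tip60 KD 1.74 and 1.77, those of Hdac6 KD -0.28 and -0.32, and those of double KD 0.30 and 0.34. The 4 groups did not overlap, and the gaps between them were far wider than those between replicates. In Hdac6 KD the level fell by 2.49 ± 0.07 on the log2 scale (SE, n = 2 per group, limma adjusted p = 0.00035), to 17.8% of the control level. For Hdac6 probe 2 they read 2.15 and 2.09 (control KD), 1.79 and 1.73 (Tip60 KD), -0.10 and -0.47 (Hdac6 KD), and 0.43 and 0.22 (double KD), again without overlap. It placed Hdac6 KD at 18.9% of control (limma adjusted p = 0.00152). Both calls in Hdac6 KD held under every alternative processing tried, with limma adjusted p of at most 0.0386 for either probe.

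From high to low, the order of the Hdac6 levels was control KD first, then Tip60 KD, then double KD, with Hdac6 KD last. Hdac6 was thus lower in Tip60 KD, where only Kat5 was targeted: by probe 1 at 73.9% of control (log2 change -0.44 ± 0.07 SE, n = 2 per group, limma adjusted p = 0.00592). By probe 2 it stood at 78.0% of control, which missed the threshold (limma adjusted p = 0.108) and passed it with the replicate letter as a block (limma adjusted p = 0.0208) and without Hdac6 KD A or without Hdac6 KD B (adjusted p = 0.0594 for each). Within slides A and B the probe 1 difference was -0.47 and -0.41. Kat5 was not called in Hdac6 KD, where its brightest probe read 1.52 and 1.53 against 1.34 and 1.37 in control KD (difference 0.17, limma adjusted p = 0.358). A second Kat5 probe differed by 0.18, which missed the threshold (limma adjusted p = 0.157) and passed it with the replicate letter as a block (limma adjusted p = 0.058). In Tip60 KD the brightest Kat5 probe read 0.00 and 0.01, and in double KD -0.11 and 0.20.

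The Hdac6 hairpin lowered Hdac6 by less in cells that also carried the Tip60 hairpin. Double KD stood at 36.9% of Tip60 KD by probe 1 (log2 difference -1.44 ± 0.07 SE, n = 2 per group, limma adjusted p = 0.0222) and at 37.0% by probe 2 (adjusted p = 0.0365). The difference between the depletions, tested as an interaction, was 1.05 by probe 1 (limma adjusted p = 0.00701) and 0.97 by probe 2 (adjusted p = 0.0294). As a level, Hdac6 in double KD was 153% of that in Hdac6 KD by both probes (limma adjusted p = 0.0139 for probe 1 and 0.0698 for probe 2), a contrast added after the data had been seen. Its call ended for probe 1 without Hdac6 KD B (log2 difference 0.60). For probe 2 it ended without any 1 of the 8 arrays (0.43 to 0.79). The probe 1 call was also lost with normexp background correction, the series matrix values, the lower floor and only the compared groups in the fit (limma adjusted p = 0.16, 0.199, 0.121 and 0.129). The probe 2 call was lost with the same settings (limma adjusted p = 0.348, 0.342, 0.258 and 0.236) and with no filter on dim probes (0.165).
The size of the drop from Tip60 KD to double KD moved little, -1.46 to -1.38 by probe 1, but its call was lost in 11 of 21 alternative settings by probe 1 and in 12 of 20 by probe 2. Leaving out any 1 array other than Tip60 KD replicate B, whether control KD A or B, Tip60 KD A, Hdac6 KD A or B, or double KD A or B, raised the limma adjusted p of both probes above 0.1 (0.108 to 0.223), and without Tip60 KD replicate B it was 0.0415 for probe 1 and 0.212 for probe 2. The unadjusted p was 9.82e-07 for probe 1.

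**Figure D1:**
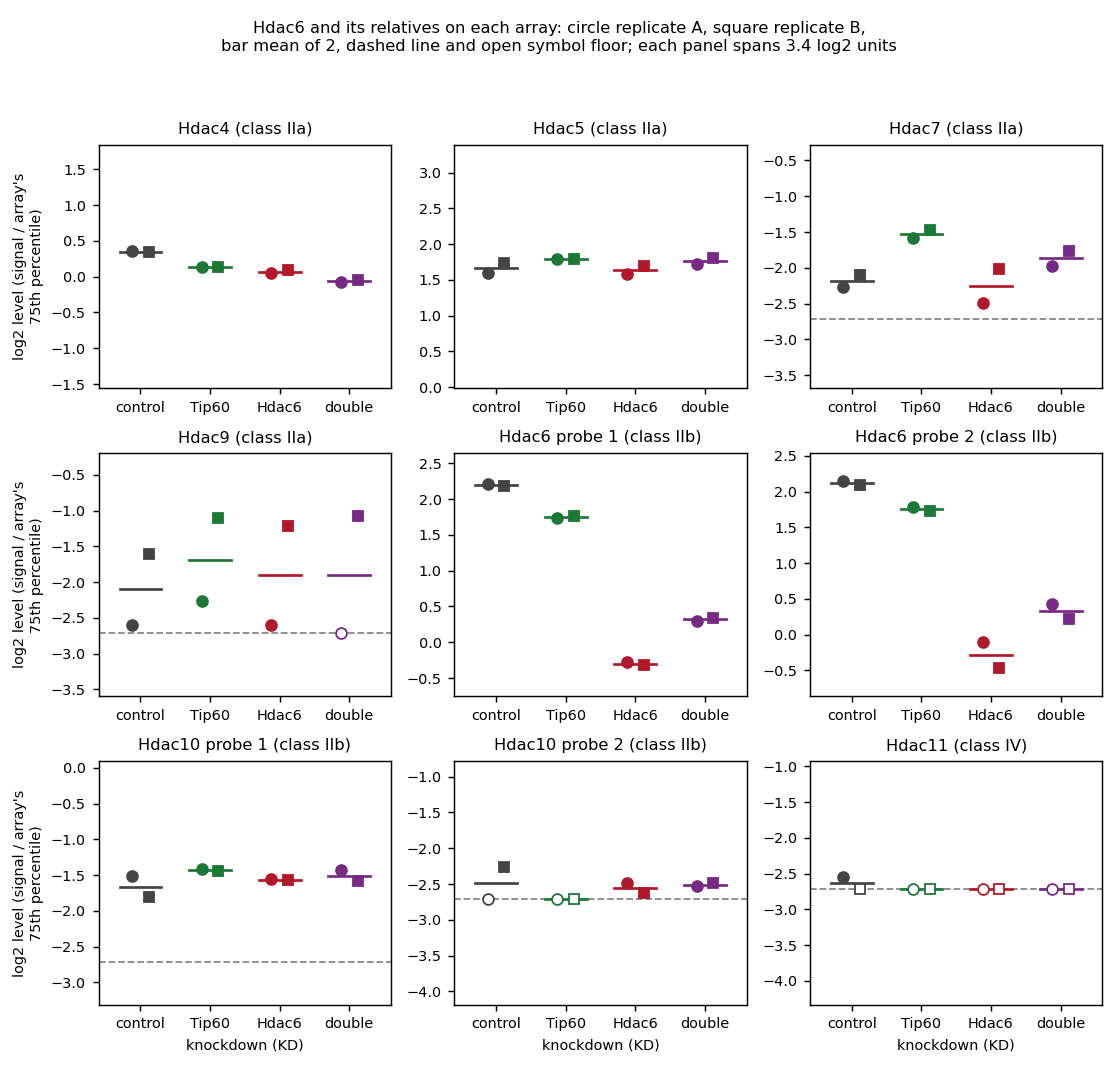
Log2 level of each of the 9 probes on each of the 8 arrays, by knockdown group (circle replicate A, square replicate B, bar the mean of 2 arrays, dashed line the floor, open symbol a value raised to the floor); every panel covers the same span but its own range of levels. Hdac6 falls from 2.21 and 2.18 in control KD to -0.28 and -0.32 in Hdac6 KD by probe 1. Hdac4 is lower in each knockdown than in control KD, and Hdac9 is higher on the B array of every group.

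Across Hdac6 KD against control KD, 3 of the 8 member probes tested were called, where 30.0% of all 22594 probes were. They were both Hdac6 probes and Hdac4, and all 3 were lower, as were 15.1% of all probes, with 14.9% higher. The first 2 are the targeted gene and say nothing of its relatives. Among the 6 probes of relatives, 1 was called, also with the replicate letter as a block, which called 53.4% of all probes. The relatives' median change was -0.05 (range -0.28 to 0.19), and the median over all probes was 0.04. Double KD against Tip60 KD called 2 of the 8, both for Hdac6 and both lower, beside 4.73% of all probes (1.43% higher and 3.30% lower). Of the 6 relatives it called 0 (limma; 1 had an unadjusted p under 0.05), and with the block it called 2 (Hdac4 and Hdac7) beside 27.6% of all probes. In the interaction, both Hdac6 probes and 0 of the 6 relatives were called (limma; 0 had an unadjusted p under 0.05, and the block also called 0), where 23.3% of all probes were, 11.2% higher and 12.1% lower, or 47.7% with the block.

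**Figure D2:**
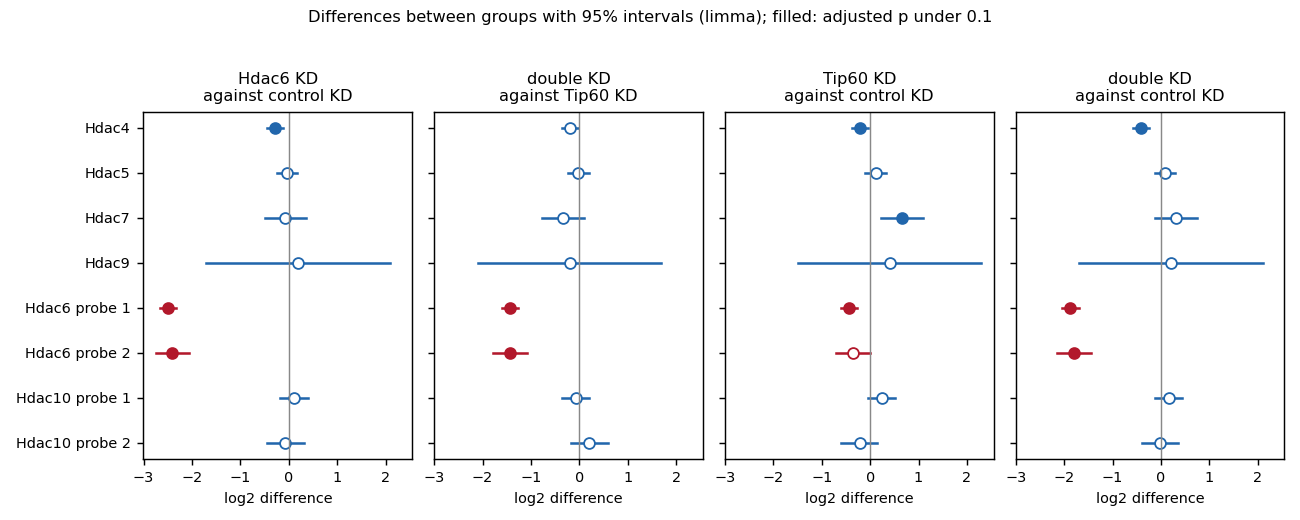
Log2 difference between groups with its 95% interval (limma) for the 8 tested probes in 4 comparisons, Hdac6 probes in red and relatives in blue, filled symbols marking an adjusted p under 0.1. Both Hdac6 probes stand near -2.5 in Hdac6 KD against control KD, of the relatives Hdac4 alone is filled there at -0.28, Hdac7 is filled at 0.66 in Tip60 KD, and the Hdac9 intervals span more than 3 log2 units.

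Hdac10, the other class IIb enzyme, was not called in any comparison. For Hdac10 probe 1 the arrays of control KD read -1.52 and -1.81, of Tip60 KD -1.41 and -1.44, of Hdac6 KD -1.56 and -1.57, and of double KD -1.43 and -1.59. The control KD and Hdac6 KD arrays overlapped, and the difference was 0.10 with a 95% interval of -0.18 to 0.39 (limma adjusted p = 0.611). In Tip60 KD both arrays lay above both control KD arrays, by 0.24 on average (limma adjusted p = 0.173, and 0.058 with the replicate letter as a block). Without control KD A the difference was 0.38 and was called (limma adjusted p = 0.0618). Hdac10 probe 2, at chr15:88954002-88954061 against chr15:88953840-88953899 for probe 1, was at the floor on control KD A and on both Tip60 KD arrays and read between -2.62 and -2.26 elsewhere. Its differences from control KD were -0.07 in Hdac6 KD and -0.22 in Tip60 KD (limma adjusted p = 0.821 and 0.334), each opposite in sign to those of probe 1. Without control KD A its difference in Tip60 KD, -0.45, was called (limma adjusted p = 0.0405), as was its interaction of 0.49 (adjusted p = 0.0932), so that leaving out 1 array called the probes of this gene in opposite directions.

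Hdac4, a class IIa enzyme that binds Mef2 factors, was lower in each knockdown than in control KD. The Hdac4 levels were 0.36 and 0.34 on the control KD arrays, 0.14 and 0.13 with the Tip60 hairpin alone, 0.05 and 0.09 with the Hdac6 hairpin alone, and -0.07 and -0.05 with both. The 4 groups did not overlap, and all 6 knockdown arrays were below both control KD arrays. The share of all probes ordered in this way was not counted, and with 2 arrays per group such an order says little by itself. In Hdac6 KD the level was 82.5% of control (95% interval 73.5% to 92.6%), a log2 change of -0.28 ± 0.07 (SE, n = 2 per group, limma adjusted p = 0.0362), with -0.31 on slide A and -0.24 on slide B. In Tip60 KD it was 86.1% of control (limma adjusted p = 0.0569) and in double KD 75.4% (limma adjusted p = 0.0101), and these 3 comparisons share the control KD arrays.
The Hdac4 change in Hdac6 KD was small beside those of other genes: 55.9% of all tested probes changed by less in size, and the median size among called probes was 0.52. Neighbours in its order of levels below control KD were not separated: Hdac6 KD and Tip60 KD differed by -0.06 (95% interval -0.23 to 0.10, limma adjusted p = 0.673) and double KD and Hdac6 KD by -0.13 (adjusted p = 0.376), both contrasts added after the data had been seen. Double KD and Tip60 KD differed by -0.19 (limma adjusted p = 0.215, and 0.0609 with the replicate letter as a block). The interaction was 0.09 (95% interval -0.15 to 0.32, limma adjusted p = 0.634).
The call in Hdac6 KD rested on every array of its groups: without control KD A, control KD B, Hdac6 KD A or Hdac6 KD B the limma adjusted p was 0.125, 0.102, 0.142 and 0.119, with changes of -0.30 to -0.26. It was also lost with normexp background correction (-0.21, adjusted p = 0.391), with the authors' series matrix values (-0.25, adjusted p = 0.269) and with a lower floor (-0.28, adjusted p = 0.163). In Tip60 KD the call was lost without control KD A, control KD B, Tip60 KD A or Tip60 KD B (limma adjusted p = 0.171, 0.123, 0.134 and 0.15), and with normexp background correction (0.413), the series matrix values (0.241), the lower floor (0.199) and the same background definition on every array (0.115), whereas in double KD no left-out array ended it (adjusted p of at most 0.05). There too it was lost with normexp background correction (-0.33, limma adjusted p = 0.163) and the series matrix values (-0.38, adjusted p = 0.11).
The summed level of fibroblast markers was lower in the knockdowns. Of 8 such markers 3 (Thy1, Pdgfrb and Fn1) were above the floor on all arrays, and Pdgfra and Postn were at the floor on all 8. Their summed log2 level ran from 6.26 to 6.39 in control KD, 6.12 to 6.19 in Hdac6 KD, 5.96 to 6.15 in double KD and 5.78 to 5.94 in Tip60 KD, a sum set mostly by Fn1, at 5.68 to 6.33. Single markers went both ways: of the 5 tested, 0 were called higher and 1 lower in Hdac6 KD, 2 higher and 1 lower in Tip60 KD, and 2 higher and 2 lower in double KD, with median changes of -0.17, 0.19 and 0.11. Their part in the Hdac4 result was not tested.

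Hdac5, another Mef2-binding class IIa enzyme, was not called in any comparison, with or without the block. The control KD arrays gave 1.60 and 1.74, both Tip60 KD arrays 1.79, the Hdac6 KD arrays 1.58 and 1.69, and the double KD arrays 1.72 and 1.80. Control KD and Hdac6 KD overlapped, and the difference of -0.04 had a 95% interval of -0.25 to 0.18 (limma adjusted p = 0.826). The Hdac5 probe was bright, at 3986 to 5274 scanner units before background subtraction, or 35.6 to 141 times the background subtracted at its spot. Both Tip60 KD arrays lay above both control KD arrays, by 0.12 on average, which did not pass the threshold (95% interval -0.10 to 0.33, limma adjusted p = 0.379).

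Hdac7, the class IIa enzyme known from thymocytes and the endothelium, was higher in Tip60 KD. The Hdac7 levels were -2.27 and -2.10 for control KD, -1.58 and -1.47 for Tip60 KD, -2.49 and -2.02 for Hdac6 KD, and -1.98 and -1.76 for double KD. Both Tip60 KD arrays lay above the other 6, an order whose share over all probes was not counted, while control KD and Hdac6 KD overlapped. In Tip60 KD the level was 158% of control (log2 change 0.66 ± 0.18 SE, n = 2 per group, limma adjusted p = 0.0337), with 0.69 on slide A and 0.63 on slide B. In Hdac6 KD the difference from control KD was -0.07 (95% interval -0.50 to 0.36, limma adjusted p = 0.844), and that from Tip60 KD, a contrast added after the data had been seen, was -0.73 (adjusted p = 0.0415).
Double KD lay between them, with a difference of 0.32 from control KD and of -0.35 from Tip60 KD. Neither difference passed the threshold (limma adjusted p = 0.261 and 0.388), and both did with the replicate letter as a block (limma adjusted p = 0.0454 and 0.0669). The Hdac7 interaction was -0.28 (95% interval -0.89 to 0.34, limma adjusted p = 0.543). The call in Tip60 KD ended without control KD replicate A (0.58) or Tip60 KD replicate B (0.61). It was also lost with normexp background correction (0.48, limma adjusted p = 0.38), the same background definition on every array (0.53, adjusted p = 0.161) and no filter on dim probes (0.66, adjusted p = 0.114).
The summed level of mesoderm and neural markers was higher with the Tip60 hairpin, though most of them were not called. Of 7 such markers 3 were above the floor on all arrays (Kdr, Nes and Tubb3), and T, a defining marker of mesoderm, was at the floor on all 8. The summed log2 level of the 7 ran from 2.20 to 2.30 in Tip60 KD and 2.08 to 2.17 in double KD. It ran from 1.22 to 1.34 in control KD and 1.54 to 1.66 in Hdac6 KD. The range of this sum depended mostly on Tubb3, at -0.74 to 1.41 over the 8 arrays. Kdr ran from -1.1 to -0.11 and Nes from -1.14 to -0.35. Of the 5 markers tested, 1 was called in Tip60 KD and 1 in double KD, 20% beside 40.6% and 33.8% of all probes. Their part in the Hdac7 result was not tested.

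Hdac9, the remaining class IIa enzyme, differed between slides more than between groups. On the A arrays its probe read -2.60 with the control hairpin, -2.27 with the Tip60 hairpin, -2.60 with the Hdac6 hairpin and -2.71, the floor, with both. On the B arrays, in the same order, it read -1.60, -1.11, -1.21 and -1.08. The B array was higher in all 4 groups, by 1.01 to 1.63, and before subtraction the B signal was 1.87 to 3.16 times the A signal. A mean difference between slides of this size, 1.30 on the log2 scale, or larger was found for 1.15% of all tested probes. All groups overlapped, and none of the 5 comparisons was called: Hdac6 KD and control KD differed by 0.19 with a 95% interval of -1.70 to 2.09 (limma adjusted p = 0.912). With the replicate letter as a block Tip60 KD against control KD, a difference of 0.41, was called (limma adjusted p = 0.0679, against 0.749 without it), and the other 4 comparisons had adjusted p of 0.197 to 0.409.

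Hdac11, the class IV enzyme, was mostly under the floor of this scale. Its probe was well above background on 7 of the 8 arrays but above the floor on 1, control KD A, so it was not tested. Before subtraction it gave 326 and 321 scanner units on the control KD arrays, 268 and 242 on those of Tip60 KD, 243 and 225 on those of Hdac6 KD, and 217 and 200 on those of double KD. All 6 knockdown arrays lay below both control KD arrays, an order whose share over all probes was not counted. The background then subtracted was 149.6 units at the control KD B spot and 38.6 to 94.3 units at the Tip60 KD and Hdac6 KD spots, and after it control KD B, at -2.79 without the floor, lay below Tip60 KD A at -2.73. Where alternatives tested the probe, Hdac6 KD against control KD was -0.38 with normexp background correction, -0.50 in the series matrix values, -0.27 with the lower floor and -0.08 with no filter, and none was called (limma adjusted p = 0.199, 0.379, 0.418 and 0.666). In double KD against control KD the same alternatives gave -0.47, -0.54, -0.22 and -0.08 (limma adjusted p = 0.119, 0.343, 0.427 and 0.63), and in Tip60 KD -0.34, -0.47, -0.23 and -0.08 (adjusted p = 0.186, 0.339, 0.446 and 0.608). The differences were all negative and none was called, but they reuse the same data and share the control KD arrays. With no filter, the -0.08 in each comparison came from control KD A alone (-2.55), since every other array lay at the floor.

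**Figure D3:**
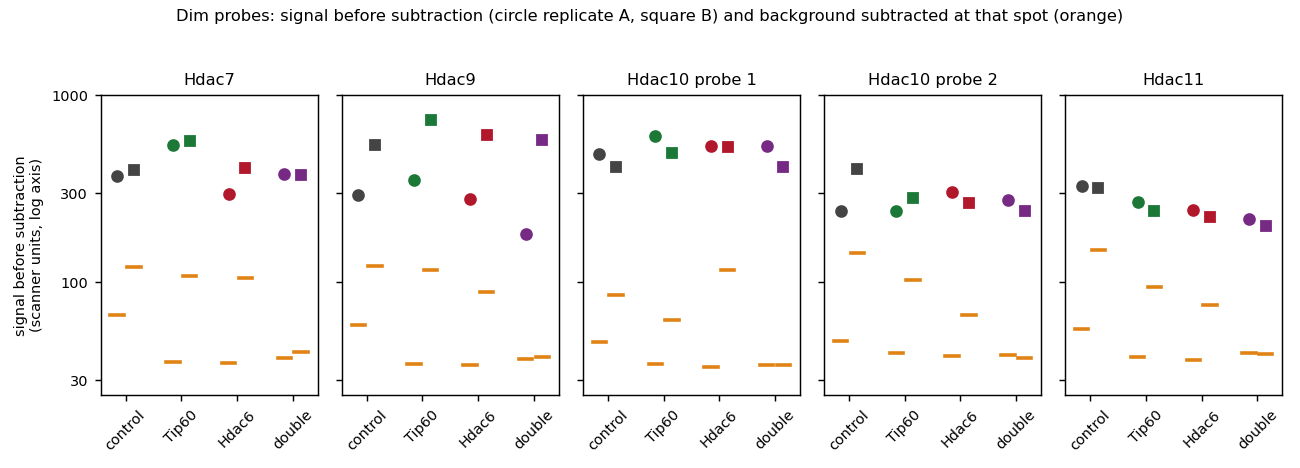
Signal before subtraction in scanner units on a log axis (circle replicate A, square replicate B) for the 5 dim probes, by knockdown group, with the background subtracted at the same spot as an orange bar. The Hdac11 signal is 2.14 to 6.71 times the background taken from it, the control KD B spot has 149.6 units removed, and the Hdac9 B squares stand 1.87 to 3.16 times above the A circles.

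The background subtracted differed between arrays and was larger on B than on A in the first 3 groups. Its median over the spots of an array was 61.0 units (A) and 114.3 units (B) for control KD, 37.2 and 89.0 for Tip60 KD, 37.7 and 86.9 for Hdac6 KD, and 39.4 and 41.4 for double KD. This difference bears most on the dim probes, whose signal was 2.14 to 16.5 times the background subtracted, and least on Hdac6, Hdac4 and Hdac5, at 11 to 142 times. Each group also had a fixed place on both slides, so place and group cannot be told apart.

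The remaining comparisons with control KD, which share its 2 arrays with the first, called 1 or 2 relatives each. Tip60 KD against control KD called 3 of the 8 member probes (Hdac7 higher, Hdac6 probe 1 and Hdac4 lower) where 40.6% of all probes were called (20.8% higher and 19.8% lower), and 2 of the 6 relatives, or 4 with the replicate letter as a block, which called 61.0% of all probes. Double KD against control KD called 3 of 8 (both Hdac6 probes and Hdac4, all lower) where 33.8% of all probes were called (16.8% higher and 17.0% lower), and 1 of the 6 relatives, or 2 with the block beside 55.9% of all probes. The relatives' median change was 0.18 in Tip60 KD and 0.12 in double KD, beside 0.07 and 0.06 over all probes.

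The other deacetylases gave a background for the class II genes. Of the 4 class I genes Hdac1, Hdac2, Hdac3 and Hdac8, 1 was called in Hdac6 KD. That was Hdac8, at the floor of -2.71 on both control KD arrays and at -1.77 and -2.07 in Hdac6 KD, a fitted rise of 0.79 from the floor (limma adjusted p = 0.0173) that ran from 0.44 to 0.94 over the alternatives, and its call was lost with quantile normalisation, normexp background correction and the series matrix values (adjusted p = 0.159, 0.183 and 0.493). Of the 7 sirtuins, the NAD-dependent deacetylases, 3 were higher (Sirt1, Sirt2 and Sirt6) and 2 lower (Sirt3 and Sirt4), beside 30.0% of all probes called. With the replicate letter as a block, which called 53.4% of all probes in Hdac6 KD, Hdac1, Hdac2 and Hdac3 were also called (limma adjusted p = 0.0557, 0.0236 and 0.0722). So were Sirt5 and Sirt7 (limma adjusted p = 0.0119 and 0.0586). Sirt5, Sirt6 and Sirt7 were named after their values were seen. Sirt1 rose by 0.72 (2.51 and 2.41 in control KD, 3.32 and 3.06 in Hdac6 KD, limma adjusted p = 0.0229), and the mitochondrial Sirt3 fell by 0.78 (2.28 and 2.12 to 1.56 and 1.28, adjusted p = 0.036). The Sirt1 call ended without control KD B or Hdac6 KD A, and with normexp background correction (limma adjusted p = 0.145). The Sirt3 call ended without control KD A, control KD B or Hdac6 KD B. It was also lost with normexp background correction, the series matrix values, the lower floor and no filter on dim probes (limma adjusted p = 0.183, 0.116, 0.107 and 0.121).

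Genes that work with class IIa enzymes were called in both directions in Hdac6 KD, where 30.0% of all probes were called, 14.9% higher and 15.1% lower. Of 10 corepressor partners, 4 (40%) were called, all higher, with a median change of 0.22 against 0.04 over all probes. Bcor, a corepressor of Bcl6, rose by 1.06 (-0.25 and -0.23 in control KD, 0.93 and 0.70 in Hdac6 KD, limma adjusted p = 0.00806). Ctbp2, a corepressor that binds class IIa enzymes, rose by 0.85 (limma adjusted p = 0.00615) and Ncor1, the scaffold that joins them to Hdac3, by 0.59 (adjusted p = 0.0066).
Of the 13 kinases tested, 3 were higher and 3 lower (46.2% called beside 30.0% of all probes). The calcium and calmodulin-dependent kinases Camk2b and Camk2d rose by 1.06 and 0.93 (limma adjusted p = 0.00463 and 0.00262, the latter lost with normexp background correction at 0.135). Camk2d was dim, at -2.45 and -2.43 in control KD, near the floor of -2.71, and at -1.54 and -1.48 in Hdac6 KD. Mark3 fell by 0.55 (1.82 and 1.73 in control KD, 1.19 and 1.26 in Hdac6 KD, limma adjusted p = 0.00833, and 0.127 with normexp and 0.124 with the series matrix values). Camk1 fell by 0.46 (limma adjusted p = 0.0174, and 0.171 with quantile normalisation, 0.119 with normexp background correction and 0.295 with the series matrix values). Of the 7 genes of 14-3-3 proteins, 28.6% were called, 1 higher and 1 lower (Ywhae, by -0.35, limma adjusted p = 0.082, lost without 6 of the 8 arrays in turn). Sfn (14-3-3 sigma) rose by 1.13 (-1.25 and -1.09 to -0.08 and -0.01, limma adjusted p = 0.0129). Of the 3 Mef2 genes tested 1 (33.3%) was called, Mef2d, which rose by 0.40 (limma adjusted p = 0.0389). Its call ended without control KD A, control KD B or Hdac6 KD A. The Mef2d call was also lost with normexp background correction, the series matrix values, the lower floor and only the compared groups in the fit (limma adjusted p = 0.304, 0.316, 0.135 and 0.102).

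Among genes of the Hdac6 axis itself, 3 of 11 substrate genes were called in Hdac6 KD, 27.3% beside 30.0% of all probes, a share near the background. They were 3 of the 4 alpha-tubulin genes listed, Tuba4a, Tuba1a and Tuba1c, all higher, and the other, Tuba1b, differed by 0.27 (limma adjusted p = 0.235). Tuba4a rose by 0.85 (3.52 and 3.25 in control KD, 4.27 and 4.22 in Hdac6 KD, limma adjusted p = 0.00879) and Tuba1a by 0.58 (2.74 and 2.77 to 3.37 and 3.31, adjusted p = 0.00775, and 0.108 with the series matrix values). Tuba1c rose by 0.26 (limma adjusted p = 0.0984), a call lost without any 1 of the 8 arrays (adjusted p of up to 0.343). Alpha-tubulin genes are close in sequence, so their probes may share signal.
Of 14 binding partners tested, 5 were called, 35.7% beside 30.0% of all probes, 2 higher and 3 lower. Sqstm1 and Sirt2 were higher, and Plaa and Cyld were among the lower ones. Plaa had no value on Hdac6 KD A and read 2.25 on Hdac6 KD B, against 2.87 and 2.72 in control KD. Cyld read -2.14 and -2.43 in control KD and lay at the floor of -2.71 on every knockdown array, a fitted change of -0.42. Cyld passed the filter only through the control KD arrays, where it was high. Its call is therefore no support for a fall, though it is counted among the 5. Sqstm1, the autophagy receptor p62, rose by 0.59 (1.62 and 1.52 to 2.27 and 2.05, limma adjusted p = 0.0214). Its call ended without control KD B and with normexp background correction (limma adjusted p = 0.11). Sirt2, a sirtuin that also deacetylates tubulin, rose by 0.40 (0.38 on both control KD arrays, 0.74 and 0.82 in Hdac6 KD, limma adjusted p = 0.0273). Its call ended without control KD A, control KD B or Hdac6 KD B. The Sirt2 call was also lost with normexp background correction, the series matrix values and the lower floor (limma adjusted p = 0.164, 0.146 and 0.114). Atat1, the enzyme that acetylates tubulin, named here after its values were seen, differed by -0.51 (limma adjusted p = 0.116, and 0.00527 with the replicate letter as a block). In all, 11 of the 22 partner genes named by rule kept their call in Hdac6 KD without each array in turn: Bcor, Ctbp2, Ncor1, Camk2b, Camk2d, Mark3, Camk1, Sfn, Tuba1a, Tuba4a and Hdac8. With normexp background correction 7 of the 22 were called (Bcor, Ctbp2, Ncor1, Camk2b, Sfn, Tuba1a and Tuba4a), with the series matrix values 9 of 21 (the same without Tuba1a, and Camk2d, Sqstm1 and Sirt1), and with the replicate letter as a block all 22.

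**Figure D4:**
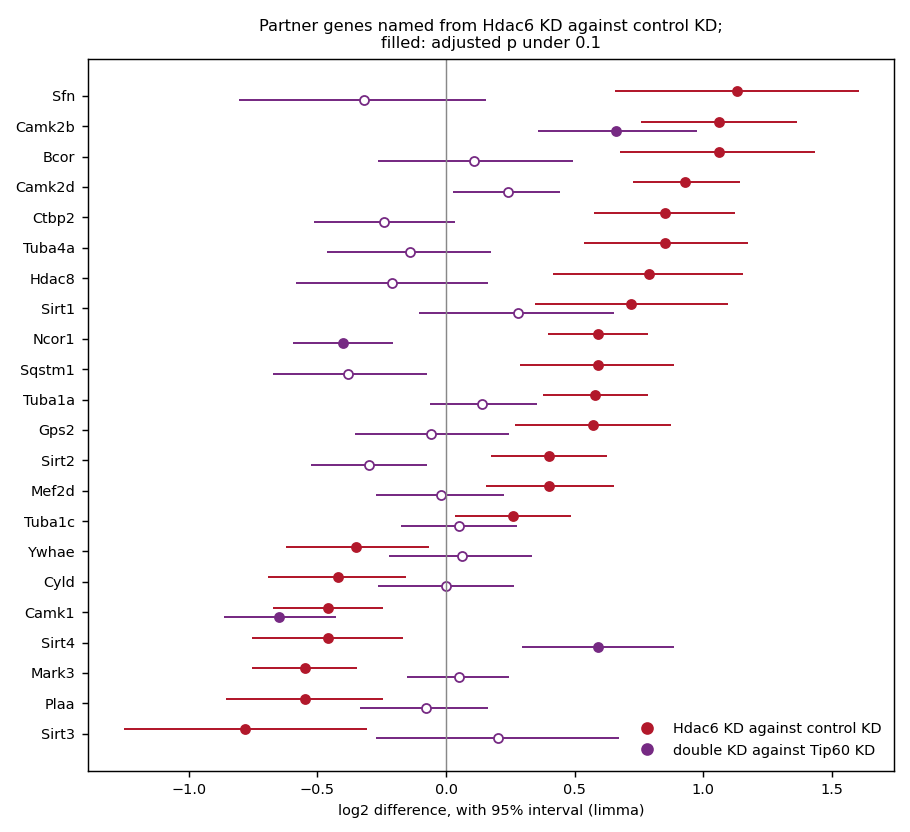
Log2 difference with its 95% interval (limma) for the 22 partner genes named from Hdac6 KD against control KD (red), with double KD against Tip60 KD beside it (purple), filled where the adjusted p was under 0.1. All red points are filled because that comparison chose the genes. Of the purple points Camk2b (0.66), Camk1 (-0.65), Ncor1 (-0.40) and Sirt4 (0.59) are filled.

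In double KD against Tip60 KD, where 4.73% of all probes were called, 4 of the 22 genes were called, and these calls did not hold widely. No probe of the whole table was called in this comparison with normexp background correction, the series matrix values, the lower floor or only the compared groups in the fit, nor without any 1 array other than Tip60 KD B, without which 15 probes of the table were (limma). Ncor1 read 1.82 on both Tip60 KD arrays and 1.38 and 1.46 in double KD, a difference of -0.40 (limma adjusted p = 0.0771) beside 0.59 in Hdac6 KD against control KD. Sirt4 read 0.16 and -0.01 in Tip60 KD and 0.79 and 0.53 in double KD, a difference of 0.59 (limma adjusted p = 0.0784) beside -0.46 in Hdac6 KD against control KD. Camk2b differed by 0.66 and Camk1 by -0.65 (limma adjusted p = 0.0728 and 0.0499). The alpha-tubulins Tuba1a and Tuba4a differed by 0.14 and -0.14 (limma adjusted p = 0.448 and 0.678). All 22 genes had been picked by adjusted p in the same fit, which gives each probe 1 spread for all 4 groups. The 4.73% is therefore no like-for-like background for them.

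The genes whose levels followed Hdac6 probe 1 most closely over the 8 arrays were NAP023030-001 (Pearson r = 0.9876), Clasrp (0.9875), Elavl3 (0.9849), Ift80 (0.9848) and Suz12 (0.9806), a description of points that share 4 conditions and their slides. Suz12, a core subunit of Polycomb repressive complex 2, had mean levels of 3.95 for control KD, 3.50 for Tip60 KD, 2.84 for double KD and 2.25 for Hdac6 KD, the order of the Hdac6 levels. Having been chosen for this likeness, these genes get no test here. No relative of Hdac6 was among these genes.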

How the data were processed

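RNA of each of the 8 samples was hybridised to 1 Agilent 1-colour array. Per the file headers, Feature Extraction 10.7.1.1 produced the deposited intensity values (processed, mean and background signals per spot). The deposited series matrix holds log2 values made by the authors. Its columns rank the probes as the median signals do, and their centring is shared (medians of 8.19 to 8.20), while the method that made them stays unknown. They were used as an alternative.

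Outlier-flagged spots were left out, spots of 1 probe were averaged, and signals were divided by the array's 75th percentile, floored at 0.153 of it and taken as log2. limma 3.58.1 (R 4.3.3) fitted the 4 groups together without a block on 22594 of 39429 probes, with 4 residual and 1.9 prior degrees of freedom. p-values were adjusted by Benjamini-Hochberg. Groups and replicate letters came from the labels. The methods call the replicates biological. Whether they came from separate cultures is not given in the sources used here, so p-values may measure technical spread only. The letters pair the arrays: same-lettered arrays deviated together in all 6 pairs of groups (r = 0.644 to 0.787), and each letter is a slide. No saturated spot was found, and 2 arrays per group limit the precision. The scripts were tested on simulated data.

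Named were the 9 member probes, Kat5, the 4 genes of smallest adjusted p under 0.1 in Hdac6 KD against control KD in each gene list (by the probe of highest mean signal) and the 5 genes most like Hdac6 probe 1. The members, lists and tests were chosen with earlier results of these data known. A result among the listed genes is not reported here. Probe coordinates and sequences are those of the scanner files (mm9). Symbols were updated through RefSeq for 27234 probes. Alternatives changed the background correction, scaling, floor, probe filter, probes per gene, samples in the fit, block, threshold and arrays. Normexp background correction, the series matrix values and the lower floor also let in probes under the floor of the main fit. They tested 37174, 36750 and 37167 probes, so a change of processing and the added probes cannot be told apart there. Figures were drawn with matplotlib 3.10.9.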

Additional observations from a re-analysis of the deposited data

Results flagged for a closer look

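The effect of the Hdac6 hairpin on Hdac6 itself differed between cells with and without the Tip60 hairpin, as tested by an interaction term in limma. By Hdac6 probe 1 the log2 change was -2.49 without and -1.44 with the Tip60 hairpin, a difference of 1.05 (95% interval 0.81 to 1.29, limma adjusted p = 0.00701), called under all 20 alternatives (adjusted p of at most 0.0867). By Hdac6 probe 2, which shares 48 of its 60 bases and is therefore no separate measurement of the gene, the changes were -2.41 and -1.44, a difference of 0.97 (limma adjusted p = 0.0294), called under 15 of 19 alternatives. Both slides showed the direction, with 1.04 and 1.07 by probe 1.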

How the results depend on the processing

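Over the member probes, 809 values under alternative processing were compared with the reported ones: 708 kept direction and side of the threshold, 55 lost a call, 16 gained one and 30 changed sign, none of these called before or after. In double KD against Tip60 KD, 0 of the 2 member calls were left with normexp background correction, the series matrix values, the lower floor or only the compared groups in the fit (limma; at an unadjusted p under 0.05 there were 2, 3, 2 and 3), 1 with 1 probe per gene name (6 member probes by construction), 4 with the replicate letter as a block, and 0 to 1 without each array in turn. In the interaction, 1 call of 2 was left with normexp, the series matrix, the lower floor, 1 probe per gene name or a change of at least 2-fold. In Tip60 KD against control KD, 3 calls became 1 with normexp, 6 with the replicate letter as a block, 0 at 2-fold (limma; 4 had an unadjusted p under 0.05), and 1 to 4 without each array in turn (1 without Tip60 KD B). The cause was not tested. The block added the calls given in the report and that of Hdac7 in double KD against Hdac6 KD (limma adjusted p = 0.0456), and changed no other member call. The alternative with only the compared groups cannot be made for the interaction.
Values that changed sign were all of uncalled probes. Hdac9 in double KD against control KD was -0.15 with normexp, -0.17 in the series matrix and -0.06 with the lower floor, and with values under the floor missing it was 0.61 in double KD against Tip60 KD and 0.42 in the interaction. Hdac10 probe 2 with the lower floor was 0.10 in Hdac6 KD and 0.15 in double KD against control KD. Without each array in turn, the Hdac6 KD against control KD difference ran from -0.11 to 0.03 for Hdac5, -0.31 to 0.17 for Hdac7, -0.50 to 0.89 for Hdac9, -0.04 to 0.25 for Hdac10 probe 1 and -0.29 to 0.16 for probe 2. Double KD against Tip60 KD ran from -0.07 to 0.01 for Hdac5 and -1.02 to 0.61 for Hdac9, and the interaction from -0.06 to 0.08 and -1.21 to 0.42. Tip60 KD against control KD ran from -0.17 to 0.98 for Hdac9, and double KD against control KD from -0.61 to 1.02 for Hdac9 and -0.24 to 0.20 for Hdac10 probe 2.
The share of tested probes called in Hdac6 KD against control KD was 30.0% of 22594, and 53.4% of the same 22594 with the replicate block. It was 6.38% of 37174 with normexp, 6.11% of 36750 in the series matrix and 11% of 37167 with the lower floor. Signal over background limits Hdac7, Hdac9, Hdac10 and Hdac11.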
